A study of Mus musculus with 12 samples.

Results

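MMTV-PyMT mice carry the polyoma virus middle T oncogene under the mouse mammary tumour virus promoter. By its label, PyMT-1099 LT is a mesenchymal mouse breast cancer cell line from a mammary tumour of such a mouse. Its cells received a Dharmacon siRNA for 48 hours, either aimed at Nrf2 (siNrf2) or matching no target (siCtl), with 2 libraries of total, ribosome-depleted RNA in each group. No untransfected cells were analysed here. The same pair of transfections in Py2T LT (MMTV-PyMT tumour) and MT∆Ecad (MMTV-Neu tumour, E-cadherin deleted) brings the number of libraries to 12. Each model is 1 line, so any value describes these cells and not PyMT tumours at large, and what LT stands for is not given in the sources used here. The genes described are the 11160 of 24454 gene IDs that reached 1 CPM (reads per 1000000 reads of a library) in at least 2 of the 4 PyMT-1099 LT libraries. Of the others, 8085 were listed at 0 in all 4. These libraries held 27874077 and 35005191 reads for siCtl and 29285403 and 35633505 for siNrf2, so 3 reads correspond to between 0.0842 and 0.108 CPM.

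NRF2, the product of Nfe2l2, is a transcription factor that KEAP1 and the CUL3 ubiquitin ligase hold at a low level in unstressed cells. When electrophiles or oxidants modify KEAP1, NRF2 accumulates, pairs with a small MAF protein and binds antioxidant response elements near genes for glutathione synthesis, quinone reduction, NADPH supply and iron storage. BACH1 competes for the same elements. In tumours, high NRF2 activity is known for protecting cells from oxidative damage and from drugs.

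The core of the antioxidant response element, searched as TGACNNNGC on both strands of the 300 bases around each gene's start (250 before, 50 after; RefSeq, GRCm38.p6), was found for 12 of the 28 NRF2 target genes with such a sequence, or 42.9%. The share was 17.1% among the 8928 tested genes with one and 12.4% among all 32851 sequences. It was 41.2% (7 of 17) for the genes that fell, 20.0% (6 of 30) for those that rose, 18.2% for those that fell in the paired fit described below and 15.6% for those that rose in it. The 7 were Nfe2l2 (which the siRNA targets), Tmem168, Prkar2a, Pdap1, Krt76, Klhdc7a and R3hdml, none of them in the NRF2 target list. The core is short, and its TGACTCAGC form also holds the AP-1 site TGACTCA. A match is not a bound site. The stretches below come from target genes and from the promoters of Nfe2l2 and Tmem168, which lead the falls. The core is in capitals, each stretch is written 5′ to 3′ on the strand that carries it, and all of these lie on the minus strand.

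Nfe2l2, chr2:75704870-75704913: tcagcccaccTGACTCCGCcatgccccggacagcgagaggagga
Tmem168, chr6:13608201-13608259: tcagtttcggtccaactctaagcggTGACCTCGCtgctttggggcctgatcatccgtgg
Gclm, chr3:122245398-122245456: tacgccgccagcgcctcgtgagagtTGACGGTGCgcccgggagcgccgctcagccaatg
Txnrd1, chr10:82859089-82859147: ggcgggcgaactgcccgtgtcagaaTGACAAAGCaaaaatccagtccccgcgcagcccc
Srxn1, chr2:152105527-152105573: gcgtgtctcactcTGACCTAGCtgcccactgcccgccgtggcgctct
Ugdh, chr5:65435941-65435999: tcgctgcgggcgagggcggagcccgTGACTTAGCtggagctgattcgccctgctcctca
Pir, chrX:164269192-164269250: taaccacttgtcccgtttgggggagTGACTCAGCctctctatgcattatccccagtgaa
Prdx1, chr4:116685441-116685499: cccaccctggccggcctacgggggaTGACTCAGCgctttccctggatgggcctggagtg

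The Txnrd1 promoter is shown whole, on the plus strand, with the reverse complement of the core in capitals.

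Txnrd1, chr10:82858956-82859255: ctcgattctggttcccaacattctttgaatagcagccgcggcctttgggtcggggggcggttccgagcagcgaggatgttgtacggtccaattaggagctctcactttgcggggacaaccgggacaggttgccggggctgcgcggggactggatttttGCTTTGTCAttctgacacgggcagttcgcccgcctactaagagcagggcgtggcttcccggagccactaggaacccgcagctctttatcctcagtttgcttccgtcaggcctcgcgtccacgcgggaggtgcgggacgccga

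Earlier work on these data singled out the heptamer ACCATTT in 3′ untranslated regions. It occurred in those of 14 of the 24 genes that fell (58.3%), of 1 of 41 that rose (2.44%) and of 13.5% of the 10703 tested genes with an annotated region. The word came from these same data, so its shares are a description and no independent test. The 14 include Nfe2l2, which the siRNA targets. Tested genes with the word had longer regions, with a median of 2621 bases against 1024 without it. In the paired fit the shares were 33.0% of falls and 7.40% of rises. The siRNA sequences are not given in the sources used here, and the part of the word in these differences was not tested. The sites below, each in the 3′ untranslated exon of a named fall that carries the word, are on the strand of the transcript (GENCODE M21, GRCm38), with the word in capitals.

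Nfe2l2, chr2:75675739-75675761, minus strand: tcttaggcACCATTTgggagagt
Tmem168, chr6:13582733-13582755, minus strand: ttcatgttACCATTTatcagtaa
Fam114a1, chr5:65040764-65040786, plus strand: cactacatACCATTTaaaggcaa
Perp, chr10:18856105-18856127, plus strand: aattctatACCATTTaagcttca
Ubtd2, chr11:32516526-32516548, plus strand: ttattgttACCATTTcttactct
Prkar2a, chr9:108747541-108747563, plus strand: ggctctgtACCATTTgctggcag
Wdfy3, chr5:101835022-101835044, minus strand: gaacctttACCATTTaatgccat
Plekha2, chr8:25042529-25042551, minus strand: ttattgacACCATTTatttaact

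A second heptamer from that work, GAGAAGT, occurred in 8.33% of the falls, in 0 of 41 rises and in 11.7% of tested genes. In the paired fit it occurred in 24.5% of falls and 5.37% of rises. These shares are descriptions as well.

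Of 10 mesenchymal markers 8 passed the CPM minimum, with Twist1 and Prrx1 at 0, and 6 of 12 epithelial markers did so too, with Epcam, Cldn7 and Ovol2 at 0. The summed epithelial markers were 4505 and 3898 CPM in siCtl and 5521 and 4650 CPM in siNrf2. The sums for mesenchymal markers were 10522 and 10217 in siCtl and 11625 and 11029 in siNrf2. The genes that follow were looked up after their values had been seen. Of the epithelial markers, Cdh1 lay between 47.8 and 62.1 CPM here and between 0.315 and 18.1 CPM in the other lines. Krt18 lay between 2218 and 3193 CPM here and between 212 and 1730 CPM elsewhere, and Krt14 between 7.97 and 14.4 against 19.9 to 142 CPM. The mesenchymal marker Vim lay between 3377 and 4258 CPM here and between 1489 and 5534 CPM elsewhere. Hnf4a, a liver and gut transcription factor, lay between 99.7 and 126 CPM in the 4 libraries and at 0 in the other 8. Cdx2 (intestine) lay between 18.8 and 22.9 CPM and was at 0 elsewhere, as was Foxa2 at 26.9 to 36.4 CPM. The villus protein gene Vil1 lay between 20.7 and 28.7 CPM, against at most 0.13 CPM elsewhere. The mammary luminal factor Gata3 lay between 0.820 and 0.954 CPM here and between 16.0 and 118 CPM elsewhere, and Esr1 was at 0 here and between 1.28 and 22.4 CPM elsewhere. Foxa1 and Elf5 were at 0 here and in MT∆Ecad, and at most 0.517 and 0.782 CPM in Py2T LT. The label states a mammary tumour, and the source of these transcripts is not given in the sources used here.

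None of 8 lymphocyte and none of 6 adipocyte markers passed the minimum. Macrophage markers passed for 4 of 10 and summed to 70.0 and 66.6 CPM in siCtl against 95.2 and 94.6 in siNrf2, with Adgre1, Aif1 and Tyrobp at 0. Fibroblast markers passed for 2 of 8 (471 and 437 CPM against 645 and 556), with Dcn, Lum, Fap and Thy1 at 0, and endothelial markers for 1 of 7, Cdh5 (summing to 90.8 and 88.1 CPM against 124 and 122), with Tek, Emcn and Cldn5 at 0. The part of such cells in the results was not tested. In bulk RNA, fewer cells of a type and less RNA per cell cannot be told apart.

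The knockdown was present in both pairs. Nfe2l2 (Entrez 18024, chr2:75675513-75704663) stood at 113 and 113 CPM in siCtl and at 25.7 and 33.3 CPM in siNrf2. Both siNrf2 libraries were far below both controls, at a mean of 26.1% of the siCtl level. The log2 difference was −1.91 (SE 0.118, adjusted p = 0.000654). This and all log2 differences are siNrf2 minus siCtl of log2(CPM + 1), tested with limma on all 12 libraries and adjusted over 11160 genes by Benjamini-Hochberg. A second fit that also blocked on the replicate numbers of each line (the paired fit) gave an adjusted p of 0.000511. Nfe2l2 fell by a like amount in the other lines, with log2 differences of −1.86 in Py2T LT and −1.97 in MT∆Ecad.

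Across the tested genes, 24 fell (0.215%) and 42 rose (0.376%) at an adjusted p under 0.05. The falls spanned 0.38 to 1.91 and the rises 0.42 to 1.28 on the log2 scale. All 66 kept their groups apart and so moved the same way in both pairs. Without any test, both siNrf2 libraries lay below both siCtl libraries for 1975 genes (17.7%) and above them for 2368 (21.2%). In the paired fit 553 genes fell (4.96%) and 702 rose (6.29%), among them all 66. The scatter of pair 1 against pair 2 shows how these sets lie, and 71.0% of all genes had 1 sign in both pairs.

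**Figure D1:**
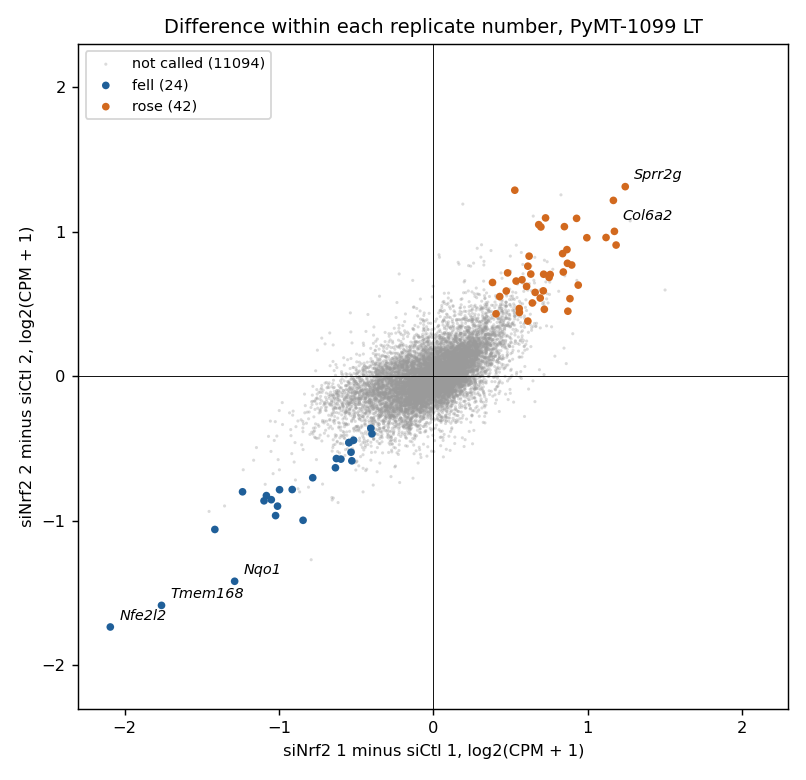
The log2(CPM + 1) difference between siNrf2 and siCtl in replicate pair 1 (x axis) against pair 2 (y axis) for 11160 genes of PyMT-1099 LT. Grey points are the 11094 genes not called, blue the 24 that fell and orange the 42 that rose, and each coloured point has 1 sign in both pairs.

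The replicate numbers were treated as pairs because libraries with 1 number deviated together, with r = 0.794 over genes in PyMT-1099 LT. The 12-library test takes part of its estimate of spread from lines that do not express a gene. Of 470 genes under 1 CPM in all 8 other libraries, 37 were called (7.87%), against 29 of the other 10690 (0.271%), and 32 of the 42 rises were such genes. With the 4 PyMT-1099 LT libraries alone and unpaired, limma called 0 genes (894 at an unadjusted p under 0.05), as did edgeR (843). With these libraries alone and paired, limma called 260 falls and 302 rises, which included 61 of the 66 and 32 of those 37. edgeR on all 12 libraries without pairing called 9 falls and 4 rises, with 0 of the 37 among them, and DESeq2 called 42 and 44, with 8 of the 37. Nfe2l2, Clrn3, Cdh16 and Proc were the named genes that kept the call whichever 1 of the 12 libraries was left out.

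**Figure D2:**
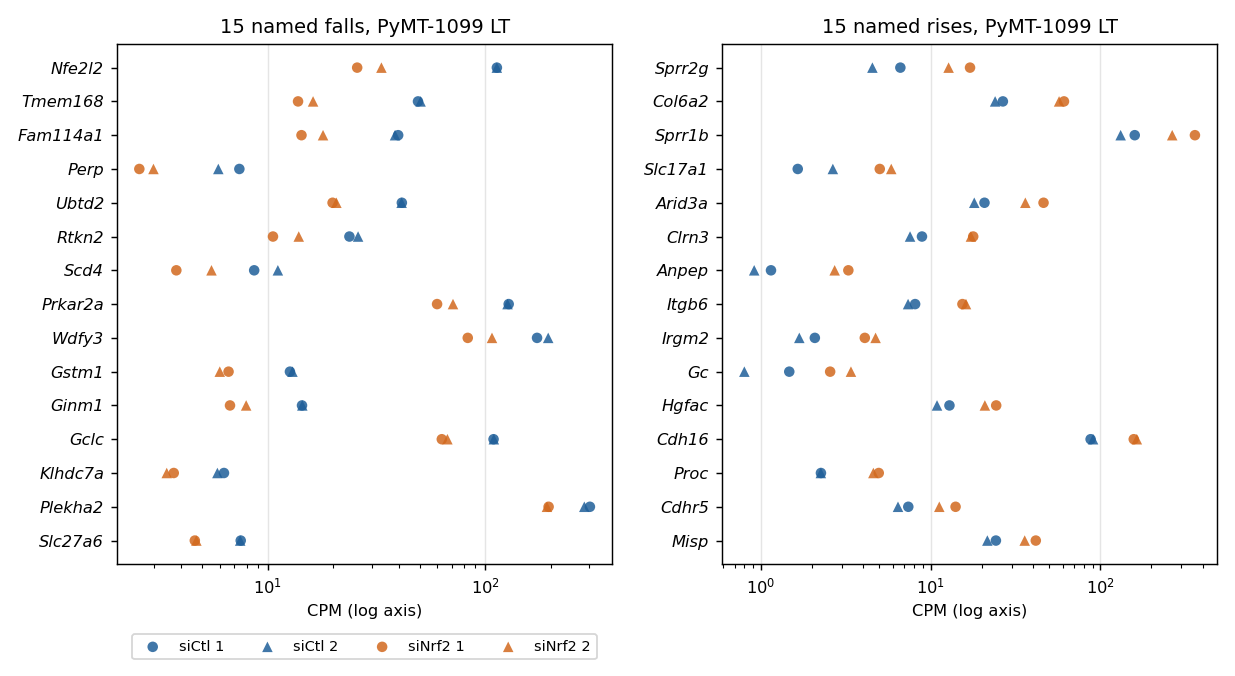
CPM on a log axis of the 15 named falls and 15 named rises in each of the 4 PyMT-1099 LT libraries, siCtl in blue and siNrf2 in orange, circles for replicate 1 and triangles for replicate 2. By the rule that chose these genes, both siNrf2 points lie on 1 side of both siCtl points, as they do for Nfe2l2 with 25.7 and 33.3 against 113 and 113 CPM.

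Among the 12 tested genes of the NRF2 system itself, Nfe2l2 was the 1 that fell. Keap1, the sensor that directs NRF2 to degradation, stood at 55.1 and 55.2 CPM in siCtl and 52.8 and 52.0 in siNrf2, a log2 difference of −0.07 with an adjusted p of 0.891. Mafg, a small MAF partner, stood at 47.4 and 52.2 against 42.3 and 40.6 CPM, with a log2 difference of −0.26 and adjusted p values of 0.363 and, paired, 0.0492. Gsk3b, a kinase that marks NRF2 for a KEAP1-independent ligase, stood at 173 and 183 against 119 and 140.2 CPM. Its siNrf2 libraries were both lower, and it fell in the paired fit (log2 −0.46, adjusted p = 0.0111; 0.242 unpaired). Bach1 (log2 −0.26), Cul3 (−0.25), Sqstm1, Btrc, Rbx1, Maff, Mafk and Nfe2l1 passed neither test.

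Of 36 tested NRF2 target genes, 3 fell (Nqo1, Gstm1, Gclc) and 0 rose. Nqo1 passed the CPM minimum only through its siCtl libraries, so the count over tested members is a description. In the paired fit 15 fell (41.7%, beside the 4.96% of all genes) and 0 rose. Both siNrf2 libraries were lower for 23 of the 36 and higher for 2. The median log2 difference was −0.21 (−0.26 in pair 1 and −0.17 in pair 2) beside −0.01 over all tested genes. The 36 differences are drawn with those of the other lines in the plot of target genes by line.

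Glutathione enzymes held 2 of the 3 falls. Gclc (Entrez 14629, chr9:77754535-77794489), the catalytic subunit of the enzyme that limits glutathione synthesis, stood at 109 and 109 CPM in siCtl and at 63.1 and 67.0 in siNrf2. The groups were well apart, with a log2 difference of −0.74 (SE 0.0887, adjusted p = 0.0144; paired 0.00387). Gstm1 (Entrez 14862, chr3:108012250-108017973), a glutathione S-transferase with close paralogs, stood at 12.6 and 13.0 against 6.59 and 6.01 CPM. Both siNrf2 libraries were about equal and lower (log2 −0.92, SE 0.124, adjusted p = 0.017; paired 0.00369). Gsta4, which conjugates 4-hydroxynonenal, stood at 5.13 and 4.57 against 1.40 and 1.99 CPM and fell in the paired fit (log2 −1.12, adjusted p = 0.0125; 0.0667 unpaired). Slc7a11, the cystine importer that feeds this pathway, stood at 15.5 and 13.7 against 6.45 and 9.46 CPM. Its siNrf2 replicates differed from each other more than its controls did, and it fell in the paired fit (log2 −0.82, adjusted p = 0.0214; 0.175 unpaired). Gclm, the modifier subunit that acts with Gclc, stood at 148 and 135 against 119 and 125 CPM and passed neither test (log2 −0.22, adjusted p = 0.441; paired 0.0963).

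Of the other detoxifying and redox enzymes, Nqo1 was the lowest relative to its control. Nqo1, an NADPH-dependent quinone reductase often used as an NRF2 readout, stood at 2.94 and 3.17 CPM in siCtl and at 0.615 and 0.561 in siNrf2. It had a log2 difference of −1.35 (SE 0.126, adjusted p = 0.00586; paired 0.00323), but its low level kept it outside the rule for named genes and it was chosen after its values were seen. Srxn1, which repairs overoxidised peroxiredoxins, stood at 157 and 135 against 123 and 112 CPM and fell in the paired fit (log2 −0.31, adjusted p = 0.0154; 0.496 unpaired). Txnrd1, the cytosolic thioredoxin reductase, stood at 457 and 421 against 396 and 365 CPM and did likewise (log2 −0.21, adjusted p = 0.0453; 0.491 unpaired). Both carry a match to the core shown above. Ugdh (UDP-glucuronate synthesis) and Pir, which carry it too, stood at 344 and 362 against 276 and 307 CPM and at 38.4 and 33.9 against 27.9 and 27.4 CPM. Their log2 differences were −0.28 and −0.37, with paired adjusted p values of 0.0219 and 0.0339 and unpaired ones of 0.304 and 0.147. Esd, an S-formylglutathione hydrolase, stood at 177 and 166 against 119 and 116 CPM (log2 −0.54, adjusted p = 0.147; paired 0.0167). Cat, Trim16 and Tkt also fell in the paired fit, by 0.22, 0.30 and 0.20 on the log2 scale. The targets Gclm, Prdx1, Pgd, G6pdx, Me1, Abcc4, Htatip2 and Mgst1 carry a match to the core as well and passed neither test. No match was found for Nqo1 and Gstm1, which fell, and Gclc had no promoter sequence.

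Iron and heme genes among the targets fell in the paired fit or in neither. Fth1, the ferritin heavy chain that stores iron, stood at 1546 and 1329.8 CPM in siCtl and at 1211 and 1056 in siNrf2, and fell in the paired fit (log2 −0.34, adjusted p = 0.00652; 0.442 unpaired). Slc48a1, a heme transporter, stood at 186 and 165 against 131 and 129 CPM (log2 −0.42, paired adjusted p = 0.0215; 0.397 unpaired). Hmox1, which degrades heme and is a target of both NRF2 and BACH1, stood at 121 and 100.1 against 116 and 105 CPM. Its groups overlapped, with a log2 difference of 0.00 and an adjusted p of 0.999 (0.977 paired). NADPH-supplying Me1 stood at 115 and 101 against 127 and 116 CPM, a log2 difference of 0.17 with an adjusted p of 0.586.

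**Figure D3:**
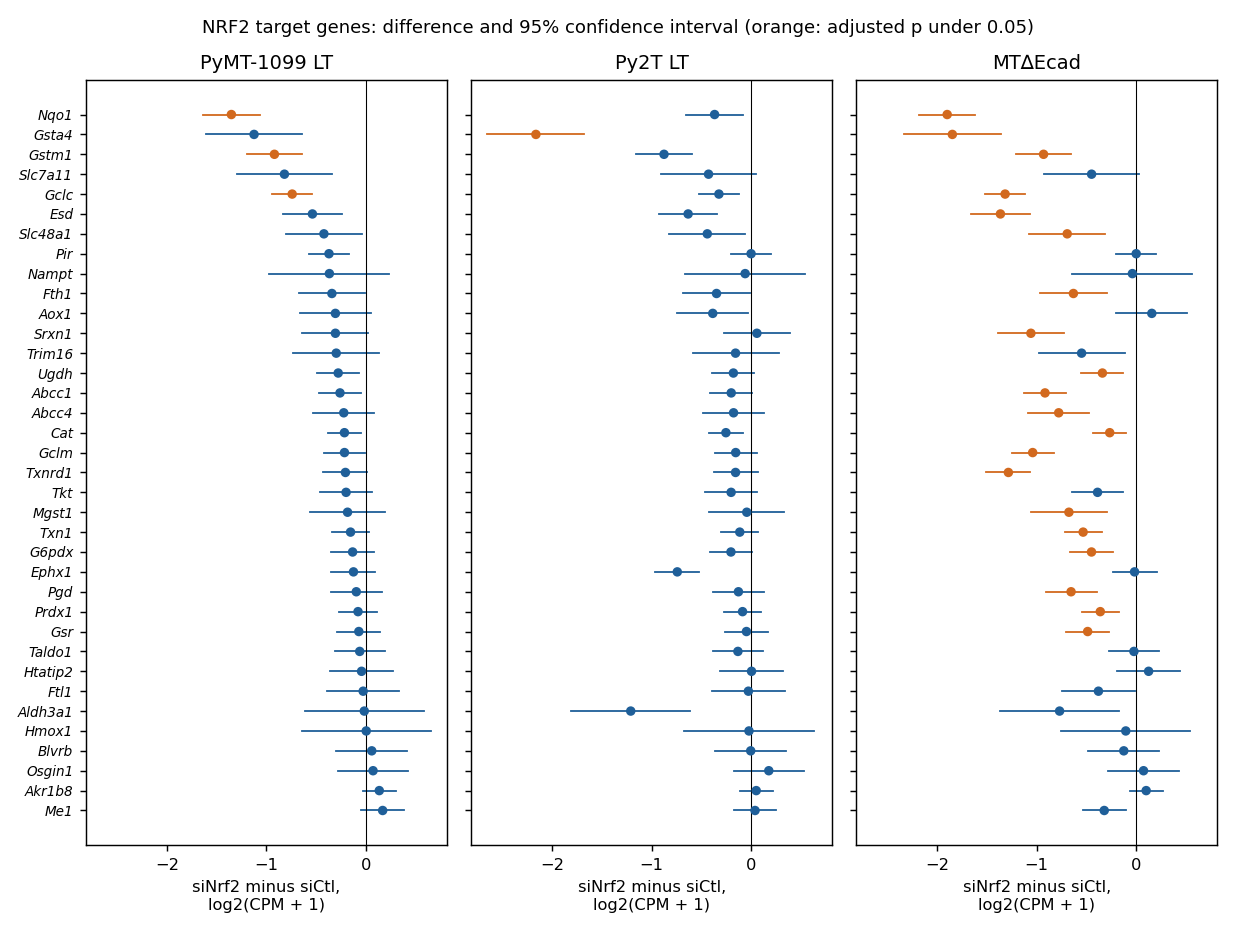
Log2(CPM + 1) difference of siNrf2 from siCtl with its 95% interval for 36 NRF2 target genes, in each of the lines (PyMT-1099 LT left, then Py2T LT, then MT∆Ecad), with orange for an adjusted p under 0.05. In PyMT-1099 LT 31 of 36 points lie below 0 and 3 are orange, against 1 in Py2T LT and 20 in MT∆Ecad.

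In Py2T LT 1 of these 36 genes fell (beside 0.0269% of all genes that fell and 0.0% that rose there) and in MT∆Ecad 20 (beside 8.1% that fell and 7.13% that rose). Their median log2 differences were −0.16 and −0.47. Tested directly, the difference between PyMT-1099 LT and MT∆Ecad passed for Gclm and Txnrd1, with −1.04 and −1.28 in MT∆Ecad, and in the paired fit it passed for 17 of the 36. For Py2T LT it passed for none of the 36 in either fit.

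The largest fall after Nfe2l2 was Tmem168 (Entrez 101118, chr6:13580689-13608098), a transmembrane protein gene, at 49.0 and 50.4 CPM in siCtl and 13.8 and 16.1 in siNrf2. Both siNrf2 libraries were at about 30.1% of the controls (log2 −1.67, SE 0.194, adjusted p = 0.0144; paired 0.00323). Fam114a1 stood at 39.8 and 38.5 against 14.3 and 17.9 CPM (log2 −1.24, adjusted p = 0.0153). Perp, a desmosome component and p53 target, stood at 7.39 and 5.91 against 2.56 and 2.97 CPM (log2 −1.02, adjusted p = 0.0153). Each of these 3 carries ACCATTT in its 3′ untranslated region, as shown above.

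Prkar2a, which encodes an inhibitory subunit of cAMP-dependent kinase, stood at 128 and 127 CPM in siCtl and at 60.03 and 71.1 in siNrf2 (log2 −0.95, SE 0.134, adjusted p = 0.0201). Wdfy3, the ALFY adaptor of selective autophagy, stood at 173 and 195 against 83.1 and 107 CPM (log2 −0.95, SE 0.134, adjusted p = 0.0201). Plekha2, a phosphoinositide-binding adaptor, stood at 303 and 286 against 196 and 192 CPM (log2 −0.60, adjusted p = 0.0201). All of these carry the heptamer too, and their siNrf2 libraries lie well below both controls. Ubtd2 (41.3 and 41.2 against 19.8 and 20.7 CPM, log2 −0.99) and Ginm1 (14.4 and 14.4 against 6.69 and 7.94 CPM, log2 −0.89) carry it as well.

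Of the other named falls, Scd4, a stearoyl-CoA desaturase with close paralogs, stood at 8.65 and 11.1 against 3.79 and 5.50 CPM (log2 −0.95, adjusted p = 0.0473). Slc27a6, a fatty acid transporter, stood at 7.498 and 7.46 against 4.61 and 4.69 CPM (log2 −0.59, adjusted p = 0.0166). Klhdc7a stood at 6.28 and 5.86 against 3.69 and 3.42 CPM (log2 −0.63, adjusted p = 0.0201). Slc27a6 and Klhdc7a were under 1 CPM in all 8 libraries of the other lines, and neither passed unpaired edgeR (adjusted p = 0.433 and 0.5). The most abundant of the falls was Ak3, a mitochondrial GTP:AMP phosphotransferase that was named after its values were seen, at 1218 and 1166 against 834 and 849 CPM (log2 −0.50, adjusted p = 0.017). Other falls were Smarcc1, Ywhaz, Pdap1, Paf1, Foxd1, R3hdml and Krt76. Krt76, which is among the falls with a match to the antioxidant response element core, passed the CPM minimum only through its siCtl libraries.

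Of the 24 falls, 16 also fell in MT∆Ecad, which is 66.7% of the falls here and 1.77% of the 904 there. Over all tested genes, 8.1% fell and 7.13% rose in MT∆Ecad. Py2T LT shared 2 (Nfe2l2 and Ak3), of its 3. For the rises, 8 of 42 (19.0%) also rose in MT∆Ecad, 1.01% of its 796, and 0 in Py2T LT. But 32 of the 42 were under 1 CPM in every library of those lines, and the 8 shared rises were among the other 10. The lines share no control libraries.

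Of the 42 rises, 32 were genes under 1 CPM in all libraries of the other lines. Sprr2g (Entrez 20761, chr3:92373915-92375229), a cornified envelope precursor, stood at 6.64 and 4.54 CPM in siCtl and at 17.1 and 12.8 in siNrf2 (log2 1.28, SE 0.162, adjusted p = 0.0153; paired 0.00165). Sprr1b, of the same family, stood at 159 and 132 against 361 and 265 CPM (log2 1.09, SE 0.161, adjusted p = 0.0246; paired 0.00369). In both genes the siNrf2 libraries were more than the higher control by a wide margin, though replicate 1 exceeded replicate 2 in each group. Sprr genes have close paralogs, so how the counting split reads among such paralogs is uncertain. Unpaired edgeR gave adjusted p values of 0.253 and 0.263 for them.

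**Figure D4:**
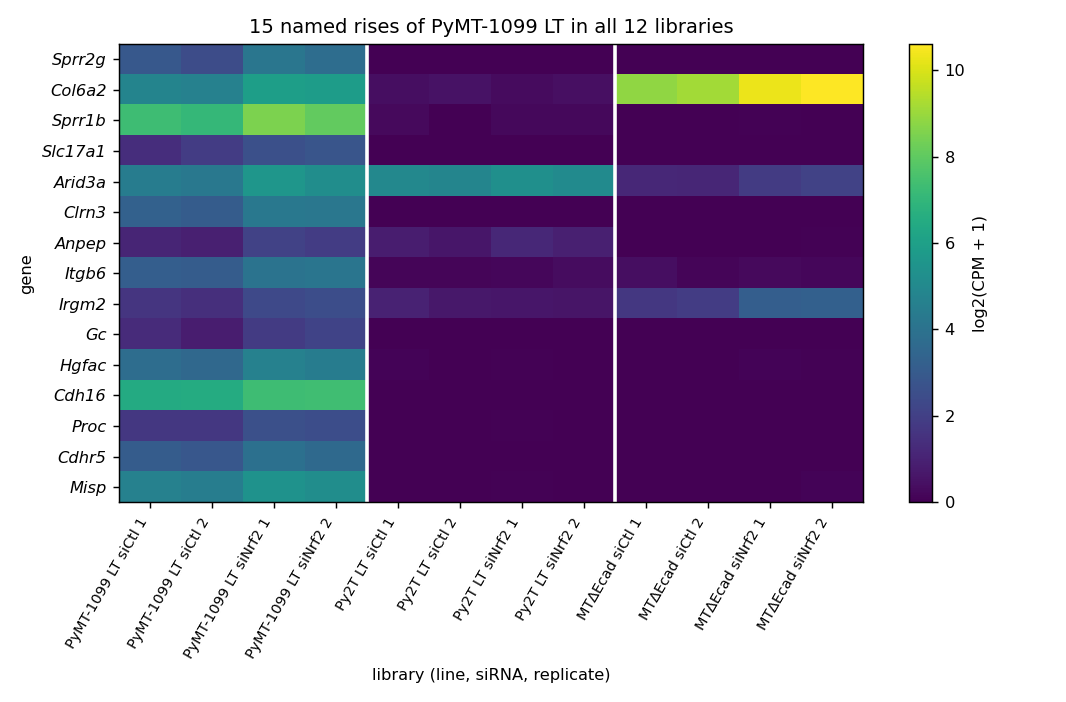
Heat map of log2(CPM + 1) for the 15 named rises (drawn as horizontal bands) in all 12 libraries (columns, by line and siRNA). The bands of Col6a2 (also in MT∆Ecad), Anpep (also in Py2T LT), and Irgm2 and Arid3a (also in both) extend beyond PyMT-1099 LT. The other bands are close to 0 in the 8 libraries of the other lines. Cdh16 is at 87.6 to 164 CPM in the 4 of PyMT-1099 LT.

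Genes of the brush border, the microvillus surface of gut and kidney cells, made up a set of 24 that was assembled after the values were seen. Of 16 tested, 10 rose (beside 0.376% of all genes), 9 of them under 1 CPM in all 8 libraries of the other lines. The paired fit gave 12 that rose (beside 6.29%) and 1, Eps8, that fell. Unpaired edgeR called 0 of them, paired edgeR 12, and the median log2 difference was 0.52 (0.51 in pair 1 and 0.58 in pair 2). Of the 10, Cdhr2, Baiap2l2 and Mep1a stood under 1 CPM in both controls and passed the filter only through their siNrf2 libraries, so the count over tested members is a description. Among all 470 genes under 1 CPM in the other lines, 7.87% were called, and 19.4% in the paired fit.

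Clrn3 (Entrez 212070, chr7:135511456-135528654), a tetraspan membrane protein gene, stood at 8.90 and 7.57 CPM in siCtl and at 17.8 and 17.3 in siNrf2 (log2 1.01, SE 0.0922, adjusted p = 0.00586; paired 0.00323). Cdhr5, a protocadherin that links microvilli, stood at 7.39 and 6.43 against 14.0 and 11.3 CPM (log2 0.78, adjusted p = 0.0201). Misp, an actin-bundling protein gene, stood at 24.3 and 21.6 against 41.7 and 35.8 CPM (log2 0.73, adjusted p = 0.0209). In each of these both siNrf2 libraries lay above both controls. Anpep, aminopeptidase N, was scarcer, at 1.15 and 0.914 against 3.28 and 2.72 CPM (log2 0.98, adjusted p = 0.016). Vil1 itself passed neither test (adjusted p = 0.443; paired 0.104). Cdh16, the kidney-specific cadherin gene (Entrez 12556, chr8:104601915-104624396), stood at 87.6 and 90.6 against 157 and 164 CPM. Replicates were close in both groups, with a log2 difference of 0.84 (SE 0.0841, adjusted p = 0.00778; paired 0.00369). Slc17a1, a kidney phosphate transporter, stood at 1.65 and 2.66 against 5.02 and 5.87 CPM (log2 1.05, adjusted p = 0.017).

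Proteins that the liver secretes into plasma formed a second set made after seeing the values, with 12 of 26 tested. Of these, 8 rose (beside 0.376% of all genes), each of them under 1 CPM in the other lines, and 9 rose in the paired fit (beside 6.29%). Among the 470 genes under 1 CPM in the other lines, which hold 9 of the 12, the shares called were 7.87% and 19.4%. Apoc2, which is among the 8, passed the filter only through its siNrf2 libraries. Unpaired edgeR called 0, paired edgeR 9, and the median log2 difference was 0.62 (0.55 and 0.72 in the pairs). Proc, the anticoagulant protein C, stood at 2.26 and 2.26 CPM in siCtl and at 4.95 and 4.60 in siNrf2 (log2 0.83, adjusted p = 0.00586). Hgfac, the protease that activates hepatocyte growth factor, stood at 12.9 and 10.9 against 24.3 and 20.9 CPM (log2 0.87, adjusted p = 0.0153). Gc, the vitamin D binding protein, stood at 1.47 and 0.80 against 2.56 and 3.40 CPM (log2 0.91, adjusted p = 0.0405). Lbp, which binds bacterial lipopolysaccharide, stood at 52.8 and 47.2 against 81.2 and 80.7 CPM (log2 0.69, adjusted p = 0.017). For the cornified envelope, another such set, 3 of 7 tested genes rose (beside 0.376% of all genes), 5 in the paired fit (beside 6.29%), 0 in unpaired edgeR and 4 in paired edgeR. Sprr2k, which is among the 3, passed the filter only through its siNrf2 libraries. The 470 genes under 1 CPM in the other lines, of which 7.87% were called (19.4% paired), hold 5 of the 7 and all 3 that rose. Counts over the tested members of these sets are descriptions.

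The rises also included adhesion and matrix genes. Col6a2 (Entrez 12834, chr10:76595756-76623630), a chain of collagen VI, stood at 26.7 and 24.0 CPM in siCtl and at 61.1 and 57.1 in siNrf2. Its groups were far apart relative to the replicates (log2 1.19, SE 0.141, adjusted p = 0.0144; paired 0.000511), it passed unpaired edgeR (0.0291), and it rose in MT∆Ecad by 1.46. Its partner chains Col6a1 (294 and 265 against 441 and 427 CPM, log2 0.63) and Col6a3 (826 and 818 against 1015 and 1043 CPM, log2 0.32) rose in the paired fit, with adjusted p values of 0.00781 and 0.0313. Itgb6, the epithelial integrin chain that activates TGF-beta, stood at 8.11 and 7.37 against 15.4 and 16.2 CPM (log2 0.94, SE 0.112, adjusted p = 0.0144). Itgb4, the hemidesmosome integrin, stood at 105 and 103 against 160.4 and 159 CPM (log2 0.61, adjusted p = 0.0475). Arid3a, a DNA-binding factor, stood at 20.8 and 18.1 against 46.3 and 36.1 CPM (log2 1.04, adjusted p = 0.0196). Irgm2, an interferon-induced GTPase with close paralogs, stood at 2.08 and 1.69 against 4.10 and 4.74 CPM (log2 0.91, adjusted p = 0.0209). Xdh, xanthine dehydrogenase, stood at 7.93 and 8.28 against 13.6 and 13.0 CPM (log2 0.65, adjusted p = 0.0201). Of these, Arid3a and Xdh also passed unpaired edgeR (adjusted p = 0.0375 and 0.0298), and Itgb6, Itgb4 and Irgm2 did not (0.192, 0.14 and 0.14).

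Among the gene lists described next, 28 of the 36 with at least 3 tested members held no gene called in the 12-library fit without pairing. Their paired counts are read beside the 4.96% that fell and 6.29% that rose over all genes. The plot of list medians shows the 2 pairs side by side. Promoter shares given for a list describe its members, whatever their response to siNrf2.

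**Figure D5:**
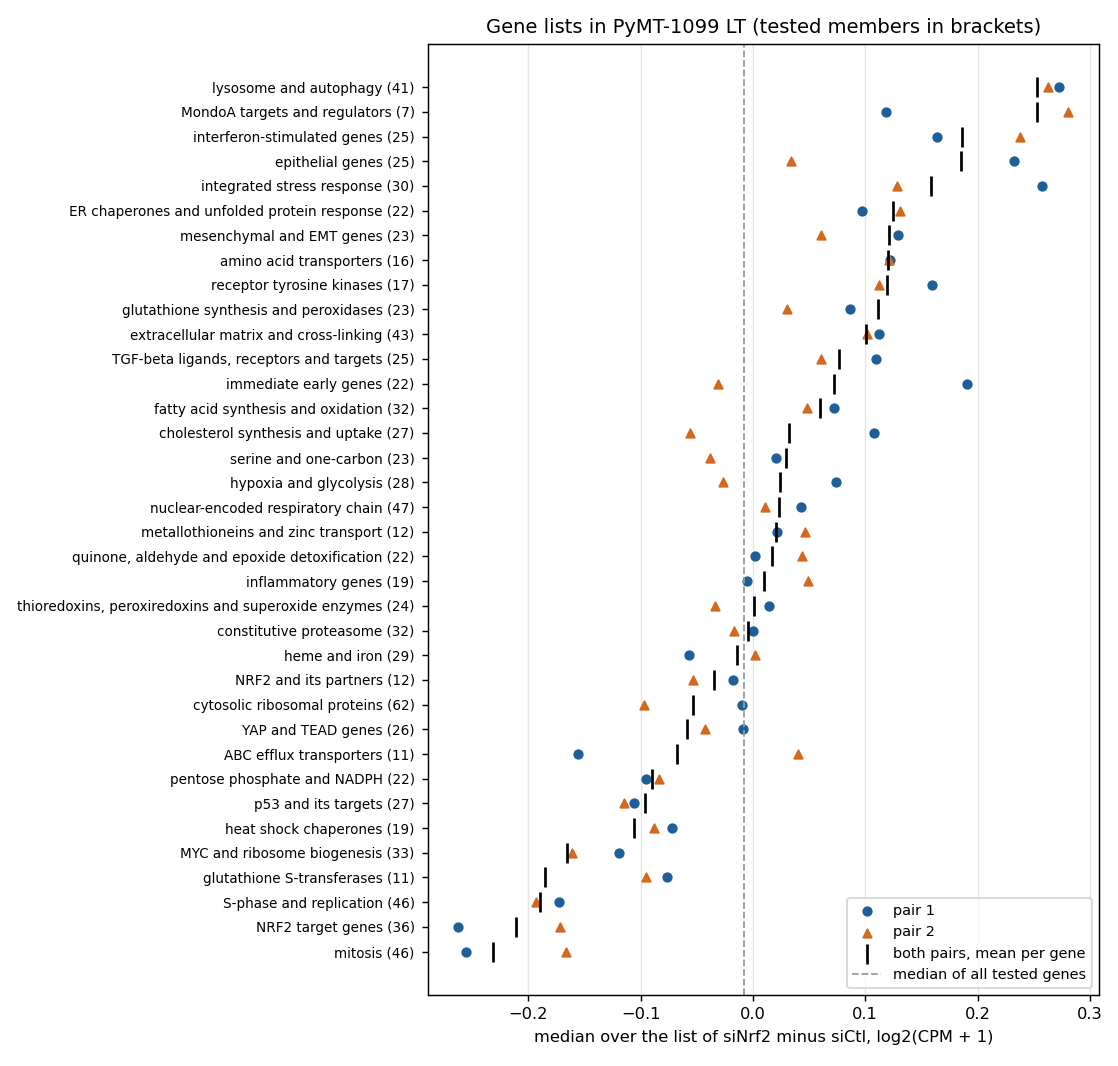
Median log2(CPM + 1) difference of siNrf2 from siCtl over the tested members of each list (black bar), with the medians in pair 1 (blue circle) and pair 2 (orange triangle), and the median over all 11160 genes as a dashed line. The lysosome list lies at 0.25 and the S-phase and mitosis lists at −0.19 and −0.23.

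For S-phase and replication, 0 of 46 tested genes passed without pairing in limma, edgeR or DESeq2 (11 fell at an unadjusted limma p under 0.05), 15 fell and 1 rose in the paired fit, and both siNrf2 libraries were lower for 28 and higher for 0. The median log2 difference was −0.19 (−0.17 and −0.19 in the pairs). Uhrf1, which maintains DNA methylation at replication forks, stood at 256 and 232 CPM in siCtl and 183 and 169.9 in siNrf2 (log2 −0.46, paired adjusted p = 0.00513; 0.133 unpaired). Mcm7, a helicase subunit, stood at 227 and 217 against 181 and 175 CPM (log2 −0.31, paired adjusted p = 0.0101). Ccne1, the G1/S cyclin E1, was the 1 that rose in the paired fit, at 60.7 and 52.5 against 79.9 and 60.03 CPM with overlapping groups (log2 0.29, adjusted p = 0.0453). For mitosis, 12 of 46 fell and 0 rose in the paired fit, with 0 called without pairing by any of the tools (9 that fell at an unadjusted limma p under 0.05) and a median of −0.23 (−0.26 and −0.17 in the pairs). Aurkb, the Aurora B kinase, stood at 133 and 132 against 96.9 and 95.9 CPM (log2 −0.46, paired adjusted p = 0.00697; 0.0955 unpaired). Hmmr, a spindle protein gene, stood at 80.9 and 124 against 39.1 and 90.9 CPM, where the groups overlap and each pair falls. The words TTTGGCGC or TTTCCCGC of E2F sites were in 14 of 36 S-phase promoter sequences, or 38.9%, beside 3.76% of those of all tested genes.

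In the lysosome and autophagy list, 23 of 41 genes rose in the paired fit and 1, Gabarapl1, fell in it, and both siNrf2 libraries were higher for 29 and lower for 2. Without pairing, limma called 0 (22 rose at an unadjusted p under 0.05), edgeR 0 and DESeq2 6 that rose, and the median was 0.25 (0.27 and 0.26 in the pairs). Neu1, the lysosomal sialidase, stood at 40.9 and 46.9 CPM in siCtl and at 68.4 and 74.4 in siNrf2 (log2 0.69, paired adjusted p = 0.00433; 0.0793 unpaired). Atp6v0d1, a subunit of the acidifying proton pump, stood at 69.4 and 61.6 against 113 and 93.8 CPM (log2 0.65, paired adjusted p = 0.00323; 0.098 unpaired). Ctsa, the protease that stabilises NEU1, stood at 79.1 and 77.3 against 118 and 110.3 CPM (log2 0.54, paired adjusted p = 0.00433; 0.0655 unpaired). The E-box CACGTG was in 12 of 33 of their promoter sequences, or 36.4%, beside 12.04% of those of all tested genes.

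Of 30 integrated stress response genes 9 rose and 1 fell in the paired fit, with a median of 0.16, and limma without pairing called 0 (9 higher and 1 lower at an unadjusted p under 0.05), edgeR 0 and DESeq2 1. Chac1, which degrades glutathione, stood at 40.6 and 38.2 CPM in siCtl and at 78.2 and 61.2 in siNrf2 (log2 0.80, paired adjusted p = 0.0426). Asns, asparagine synthetase, stood at 315 and 281 against 415 and 341 CPM (log2 0.34, paired adjusted p = 0.0109). The word TGATGNAA was in 10 of 28 of these promoters (35.7%), beside 2.58% of those of all tested genes. Of 25 interferon-stimulated genes 8 rose and 1 (Ifit2) fell in the paired fit, with a median of 0.19, and without pairing limma (9 higher at an unadjusted p under 0.05), edgeR and DESeq2 called 0. The word GAAANNGAA was in 10 of 20 of their promoters, beside 7.997% over all tested genes. Txnip, an arrestin that binds thioredoxin and answers to MondoA, stood at 46.5 and 31.8 against 83.2 and 77.4 CPM (log2 1.04, paired adjusted p = 0.0113; 0.231 unpaired). Hspd1, the mitochondrial chaperonin, stood at 724 and 788 against 352 and 494 CPM (log2 −0.86, paired adjusted p = 0.00932; 0.192 unpaired).

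Structural and lineage lists were mixed. Of 43 matrix genes, Col6a2 rose without pairing, and 11 rose and 5 fell in the paired fit. Of 25 epithelial genes 1 fell (Perp) and 1 rose without pairing, and 7 rose and 4 fell with it, with medians of 0.23 in pair 1 and 0.03 in pair 2. Krt18, a simple-epithelium keratin, stood at 2615 and 2218 against 3193 and 2739 CPM (log2 0.30, paired adjusted p = 0.0132), whereas the basal keratin Krt14 stood at 14.4 and 13.1 against 9.83 and 7.97 CPM (log2 −0.58, paired adjusted p = 0.0118). Of 23 mesenchymal and EMT genes 4 fell and 2 rose in the paired fit. The repressor Zeb2 stood at 46.7 and 59.1 against 22.9 and 37.4 CPM (log2 −0.82, paired adjusted p = 0.0105). Of 62 cytosolic ribosomal protein genes and 47 nuclear-encoded respiratory chain genes, 0 passed either limma fit. At an unadjusted p under 0.05 without pairing, 4 and 0 were lower, and paired edgeR called 1 and 0.

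Set against the other lines, the siNrf2 effect in PyMT-1099 LT differed from MT∆Ecad for 39 genes (0.349%), 20 above and 19 below, and in the paired fit for 1392 (12.5%). Leaving out any 1 of the 12 libraries reduced the 39 to between 0 and 6. It differed from Py2T LT for 0 genes in limma (0.0%, 366 at an unadjusted p under 0.05), for 0 in edgeR and DESeq2, and for 2 (0.0179%) in the paired fit. Of the 39, 7 were under 1 CPM in all MT∆Ecad and Py2T LT libraries, among them Clrn3, Itgb6, Cdh16 and Proc. Such genes have no response to compare in those lines, so their differences largely repeat the PyMT-1099 LT effect. Dock8, a guanine nucleotide exchange factor gene of the actin system, differed by 0.97, with a log2 difference of −0.90 in MT∆Ecad.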

How the data were processed

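The deposited table gives CPM values per Entrez gene ID for 12 libraries. Per the labels' protocols, 200 ng of total RNA was depleted of ribosomal RNA and sequenced as 81-nt single reads with a stranded kit. STAR and mm10 are named in the submitters' processing notes, and the counter, its annotation and its strand setting are not given in the sources used here, so overlapping and antisense genes are uncertain. The authors' CPM values were 100% whole multiples of 1 read within 0.01 read, which gave read counts of 27088970 to 37070635 per library. Symbols came from RefSeq GRCm38.p6 (24374 IDs) or GENCODE M21 (7), and 73 IDs, 20 of them tested, had none.

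limma 3.58.1 (R 4.3.3) fitted log2(CPM + 1) with 6 group means over 12 libraries, with a trend in the prior (6 residual degrees of freedom). The threshold was a Benjamini-Hochberg adjusted p of 0.05, two-sided. A log2 difference understates the change of low genes. The paired fit added the replicate number within each line (3 residual degrees of freedom). The numbers were taken as pairs because same-numbered libraries deviated together, with r = 0.794, 0.866 (Py2T LT) and 0.643 (MT∆Ecad). The series calls the libraries biological duplicates without naming separate cultures, so p-values measure the spread between these libraries. edgeR 4.0.16 and DESeq2 1.42.0 on the recovered reads, other scalings, filters, pseudocounts and leaving out each library made 28 alternatives. The procedure was tested on simulated data without any replicate effect, so that test does not bear on the pairing.

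Named genes were Nfe2l2, the 15 largest falls and rises past the threshold whose groups do not overlap, up to 4 called genes per list, all tested NRF2 genes and the 5 smallest p-values of each difference between lines, with a mean CPM of at least 2. Genes described only through the paired fit were chosen after their values were seen. The members and lists were chosen with earlier results of these data known.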

Additional observations from a re-analysis of the deposited data

Results flagged for a closer look

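The genes below had a siNrf2 effect in PyMT-1099 LT that differed from that in MT∆Ecad by a direct test of the difference (limma, 12 libraries). Values are the PyMT-1099 LT effect minus the MT∆Ecad effect on the log2(CPM + 1) scale. The 39 such genes become 0 to 6 when any 1 of the 12 libraries is left out.

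The difference was positive for Txnrd1 (1.08) and Gclm (0.825), which fell in MT∆Ecad and passed neither test in PyMT-1099 LT or, for Txnrd1, passed the paired one alone. It was positive for Clrn3 (1.01), Itgb6 (0.998), Cdh16 (0.843) and Proc (0.825), which were under 1 CPM in MT∆Ecad. Their effects within PyMT-1099 LT were 1.01, 0.942, 0.843 and 0.825. The differences largely repeat these effects and compare no response in MT∆Ecad. Dock8 differed by 0.969 and fell in MT∆Ecad from 30.8 and 27.6 CPM to 15.7 and 14.7 CPM.

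The difference was negative for Cd93 (−2.51), a C-type lectin receptor gene, which stood at 9.59 and 15.1 CPM in MT∆Ecad siCtl and 58.9 and 87.7 in siNrf2. It was −1.63 for Parm1, at 4.28 and 5.46 against 21.98 and 27.5 CPM there. It was −1.35 for Oasl2, an interferon-induced gene, at 0.292 and 0.332 against 1.83 and 2.00 CPM there.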

How the results depend on the processing

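The Nfe2l2 fall kept its direction in every alternative. Its limma estimate cannot change with the block, on the 4 PyMT-1099 LT libraries alone or without a library of another line. The call was lost where the 4 PyMT-1099 LT libraries were fitted alone without pairing (−1.91, adjusted p = 0.255, limma, and −1.94, 0.22, edgeR). There 0 genes fell and 0 rose, 0 of them NRF2 targets, in both tools.

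The counts depended on the pairing. Against 24 falls, 42 rises, 3 NRF2 target falls, 0 differences from Py2T LT and 39 from MT∆Ecad, the replicate block gave 553, 702, 15, 2 and 1392. edgeR with the block gave 523, 760, 13, 1 and 1246. On the 4 libraries alone with the block, limma gave 260, 302 and 10 and edgeR 973, 780 and 18. Genes at 1 CPM in all 3 lines gave 11 falls, 3 rises and 0 differences from MT∆Ecad, and with the block 517, 561, 14 target falls and 1236 differences.

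Without the block, edgeR gave 9 falls, 4 rises and 16 differences from MT∆Ecad, and DESeq2 42 falls and 137 differences. A CPM minimum of 5 gave 18 rises and 15 differences from MT∆Ecad. Filtering over 12 libraries gave 1 difference from Py2T LT and 226 from MT∆Ecad. No filter gave 48 falls, 77 rises, 16 differences from Py2T LT and 262 from MT∆Ecad. A pseudocount of 0.1 gave 11 falls, 2 rises and 9 differences, and 0.5 gave 23 rises and 10 differences. Leaving out 1 library, the lone one being assumed to vary like the others, gave 2 to 23 falls, 5 to 35 rises, 1 to 4 target falls, 0 to 3 differences from Py2T LT and 0 to 6 from MT∆Ecad. Falls and rises numbered 2 and 17 without siCtl 1 of PyMT-1099 LT, 3 and 14 without its siCtl 2, 2 and 5 without its siNrf2 1, 12 and 20 without its siNrf2 2, and 5 and 8 without either siCtl library of MT∆Ecad. The cause of these changes was not tested. The edgeR fits on 4 libraries and those on genes at 1 CPM in all 3 lines were chosen after seeing the data. The medians of the NRF2 target, S-phase, mitosis, lysosome, integrated stress and interferon lists kept their sign in all 28 alternatives. The limma fits with the block, on the 4 libraries alone or without another line's library could not change a median.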

Other observations

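Paired counts of some lists outside the comparisons above are read beside the 4.96% that fell and 6.29% that rose over all genes. Without pairing, limma called Perp in the p53 list and no gene in the others. ABC efflux transporters had 5 of 11 tested genes that rose and 0 that fell, while the list's medians had opposite signs in the pairs. The p53 list had 6 of 27 that fell and 1 that rose. Of 29 heme and iron genes 5 fell and 0 rose, and of 22 unfolded protein response genes 5 rose and 1 fell. The constitutive proteasome had 1 of 32 that fell (3.1%, below the share over all genes) and 0 that rose. Replication-dependent histone genes passed the CPM minimum for 2 of 24.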
